A study of Mus musculus with 9 samples.

Results

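10 genes whose human counterparts carry risk for Alzheimer's disease or frontotemporal dementia, and that are usually placed outside the Trem2 receptor pathway, were followed in mouse microglia: Bin1, Picalm, Cd2ap, Rin3, Sorl1, Abca7, Abi3, Ptk2b, Grn and Tmem106b. They were taken by symbol from the deposited expression table, which held all 10 genes among 18571. The rule names the genes and uses no measured value, but the genes were chosen with earlier results of these data known. The study asked what the gap-junction protein connexin 43 (Cx43, encoded by Gja1) does in microglia of an amyloid model. RNA came from cells of the cortex and hippocampus of C57BL6/j mice aged 9 months, freed with papain after perfusion and removal of the meninges and captured on plates coated for CD45, a surface protein of all white blood cells and of microglia. There were 3 groups of 3 libraries. The WT group is labelled wild type. The APP/PS1 group carries the APP/PS1 disease transgenes, which drive amyloid deposition. The third group carries APP/PS1 together with Cx3cr1-CreER and Cx43-flox/flox and is called Cx43 cKO here. Mice of all groups had tamoxifen by gavage at 0.1 mg/g for 5 days at 8 months of age. Cx3cr1-CreER directs the tamoxifen-dependent recombinase to cells that express Cx3cr1, which include microglia, border macrophages and some blood monocytes. Per the labels, only the Cx43 cKO group carries the CreER and floxed alleles, so the loss of Cx43 and the presence of these alleles cannot be told apart. Setting APP/PS1 beside WT is called the amyloid comparison here, that between Cx43 cKO and APP/PS1 the knockout comparison, and that between Cx43 cKO and WT, which differ in both respects, the combined comparison. The labels do not say how many mice gave a library, nor whether replicates were separate animals, so the p-values measure the spread between these libraries, which may be technical.

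Most of these genes act where a cell takes up material and decides its fate. Clathrin coats and curved-membrane proteins form endocytic vesicles, the small GTPase Rab5 and its exchange factors run the early endosome, the retromer coat and receptors such as SORL1 recycle cargo to the Golgi or the surface, and what is not recycled goes to the lysosome, where progranulin (Grn) and TMEM106B act. ABCA7 moves lipids across membranes, and ABI3 and the kinase PTK2B act on the actin cytoskeleton and on adhesion. In the brain, microglia use these routes to engulf and degrade debris and amyloid, and many common variants tied to Alzheimer's disease lie near genes that microglia express.

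Total estimated counts were 18907681 to 19565354 per library, and replicates of a group were very alike, with a biological coefficient of variation of 3.14% in the fit over all genes. The targeted gene Gja1 was at 34, 31.6 and 35.1 CPM (a read count scaled to a common library size) in WT mice, at 39.7, 37 and 42.5 in APP/PS1 mice and at 27.2, 25.3 and 28.1 in Cx43 cKO, so its level fell between APP/PS1 and Cx43 cKO (log2 change -0.56, SE 0.060, edgeR adjusted p = 7.95e-09), with reads still counted in each Cx43 cKO library. Astrocytes express Gja1 strongly, and their 10 markers stood in the same order of groups, summing to 852 to 859 CPM in WT mice, 1043 to 1075 in APP/PS1 mice and 836 to 843 in Cx43 cKO. Of these 10, 9 were higher and 1 lower in the amyloid comparison and 9 lower and 0 higher in the knockout comparison, past the threshold in edgeR's quasi-likelihood test, and their part in the Gja1 values was not tested. In the combined comparison, where 5 of the 10 were called higher and 3 lower, Gja1 changed by -0.32 (SE 0.060, edgeR adjusted p = 7.62e-05). Which part of Gja1 is floxed is not given, and reads from outside it count in these values. Cx3cr1, the locus of the CreER, averaged 2259.8, 2231 and 1214 CPM in the 3 groups. The Y-linked Ddx3y was at 204 to 248 CPM in every WT and APP/PS1 library and at 0 to 0.104 CPM in Cx43 cKO, so that in both comparisons with Cx43 cKO the genotype and the sex of the mice cannot be told apart. All 10 microglial markers examined were present, summing to 19754 to 20111 CPM in WT mice, 23895 to 24274 in APP/PS1 mice and 20781 to 21050.1 in Cx43 cKO. Markers of other cells also differed between groups. The 11 monocyte and neutrophil markers summed to 2641 to 2677 CPM in WT mice, 927 to 951 in APP/PS1 mice and 8443 to 8599 in Cx43 cKO. No marker on these lists was at 0 throughout a group. Erythroid markers summed to 796 to 857, 174 to 195 and 70.8 to 77.6 CPM, and genes induced by tissue dissociation to 21764 to 22949, 17606 to 18568 and 18053 to 18972 CPM, in WT, APP/PS1 and Cx43 cKO in turn.

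**Figure D1:**
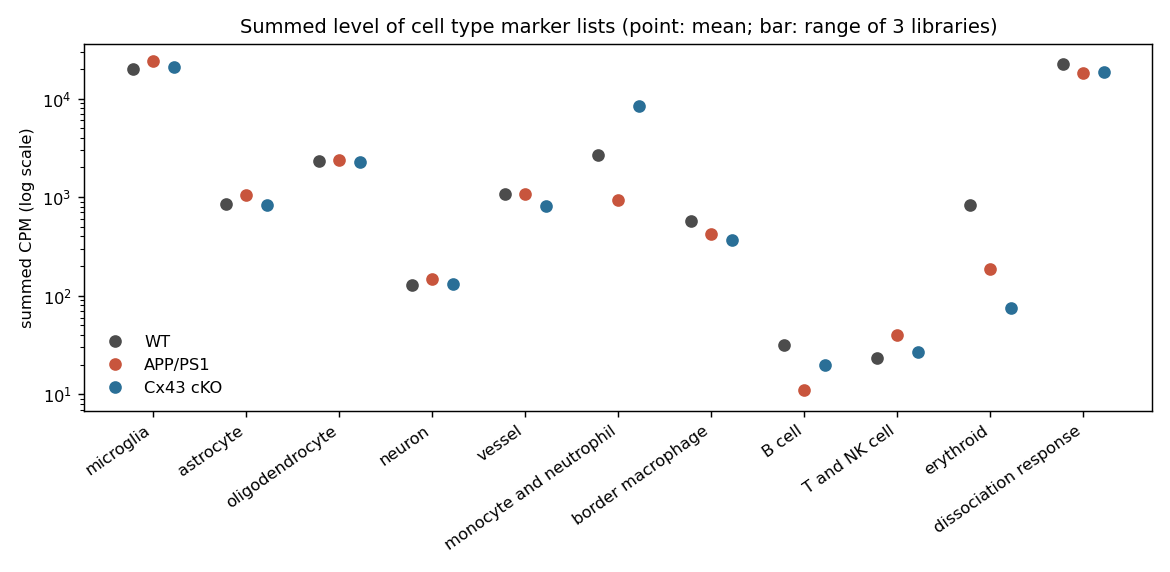
Summed CPM (log axis) of the marker genes of each cell type and of a set of dissociation-induced genes; points are group means and bars, mostly hidden by the points, the range of 3 libraries. Monocyte and neutrophil markers run from 941 CPM in APP/PS1 through 2654 in WT to 8510.3 in Cx43 cKO, a wider gap than for microglial markers.

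The clearest change among the 10 genes was in Sorl1, which fell 1.91-fold in APP/PS1 and stood 2.5-fold above APP/PS1 in Cx43 cKO. Abca7 moved the same way with a smaller amplitude. Grn rose from WT through APP/PS1 to Cx43 cKO, although the first of these steps turned negative on TPM, a level per transcript length. Picalm differed by at most 0.092 on the log2 scale and passed the test in no comparison, though it did under several alternatives. In the amyloid comparison, 8 of the 10 genes passed an adjusted p of 0.05 in edgeR's quasi-likelihood test, where 59.0% of the 14696 tested genes did. Of these, 6 were lower (Bin1, Rin3, Sorl1, Abca7, Abi3 and Ptk2b, while 32.0% of tested genes were lower), of which Abi3 and Ptk2b changed sign once GC content and transcript length were corrected for. Grn and Tmem106b were higher, as were 26.9% of tested genes, and changed sign on TPM. The CPM values of the groups did not overlap for 8 of the 10 genes, against 63.5% of all tested genes. For the knockout comparison, 8 of the 10 passed beside 55.0% of tested genes. Here 6 were higher (Rin3, Sorl1, Abca7, Abi3, Ptk2b and Grn, with a background of 27.3%) and 2 lower (Cd2ap and Tmem106b, with a background of 27.7%). Abi3 turned negative with the GC and length correction and Cd2ap positive on TPM. Of the 10 genes, 9 had groups that did not overlap, which held for 59.7% of all tested genes. In the combined comparison, 6 passed beside a background of 47.7%, with Sorl1, Abca7, Ptk2b and Grn higher (background 24.7%) and Bin1 and Rin3 lower (background 23.0%). Ptk2b turned negative on TPM. In this comparison 7 had groups without overlap (background 54.6%). So many genes differ between these libraries that a call by itself sets a gene apart little. All 10 genes were expressed well above the filter on low counts and all were tested.

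These comparisons use CPM after TMM scaling, which sets the bulk of genes equal between libraries, and the direction of small changes rests on that choice. The 10 genes had a median log2 change of -0.13 in the amyloid comparison (all tested genes -0.036), 0.18 in the knockout comparison (all -0.011) and -0.0073 in the combined comparison (all -0.0086). With GC and length offsets these medians were 0.0094 (all -0.013), 0.066 (all -0.0091) and 0.069 (all 0.0079), so the first and the last changed sign. On the deposited TPM values (a level per transcript length that sums to the same total in each library), the median of all tested genes itself moved by -0.35, 0.14 and -0.17. The share of called genes that were higher went from 45.7% on CPM to 14.7% on TPM in the amyloid comparison, from 49.6% to 75.3% in the knockout comparison and from 51.9% to 19.8% in the combined comparison, and with library totals alone it was 29.5% and 30.4% in both comparisons with WT. Relative to that median, Sorl1 stood at -0.91, 1.29 and 0.35 on TPM in the 3 comparisons, Abca7 at -0.37, 0.59 and 0.19, Grn at 0.17, 0.39 and 0.53, and Tmem106b at 0.25, -0.20 and 0.013. Less RNA per cell and fewer cells of a type cannot be told apart in these bulk samples.

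**Figure D2:**
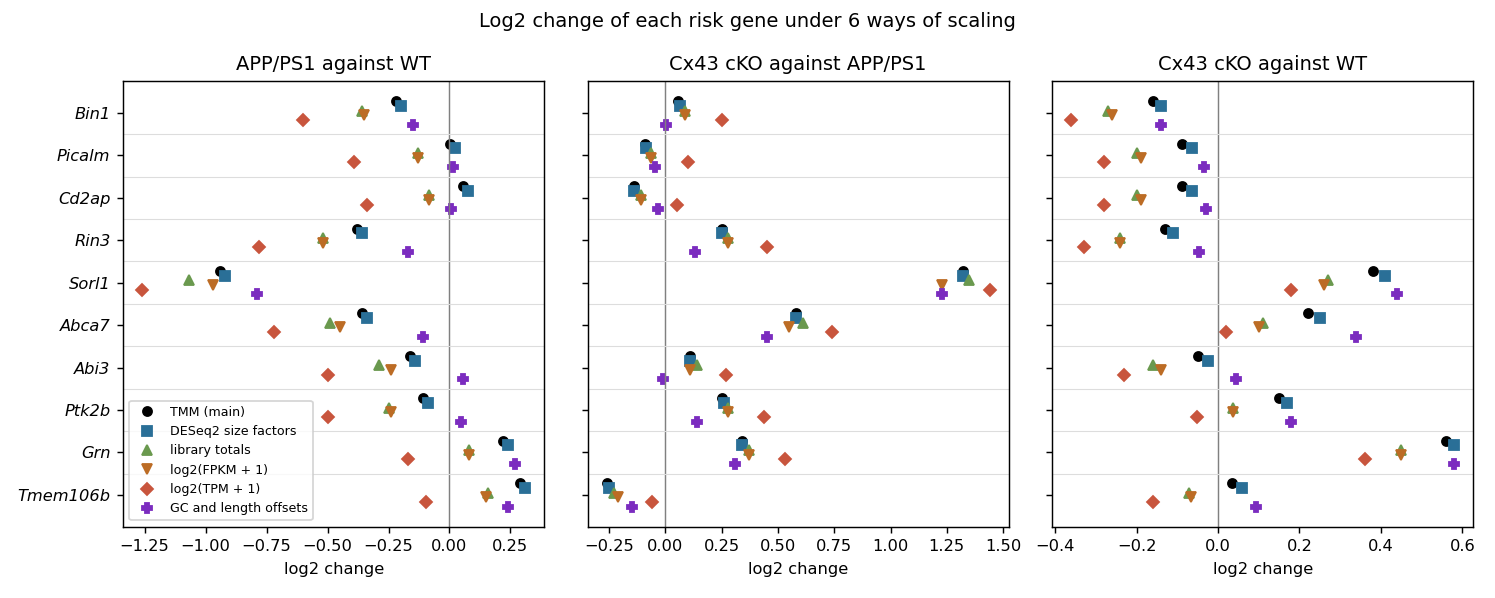
Log2 change (x axis, its range differs between panels) of each risk gene in the 3 comparisons under 6 ways of scaling, each marker a scaling. Sorl1 keeps its side of 0 in every panel, while Picalm, Cd2ap, Abi3, Ptk2b, Grn and Tmem106b cross 0 under at least 1 scaling in APP/PS1 against WT.

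Levels between genes are comparable only per transcript length, on TPM. Averaged over the 9 libraries, Grn was highest at 1393 TPM, followed by Picalm at 693, Bin1 at 429.7 and Abi3 at 146, and the ranges of these 4 genes over all libraries did not overlap. Ptk2b (84.5 TPM) and Cd2ap (62.7) came next, with ranges that overlapped. Rin3 (38.3), Tmem106b (31.4), Sorl1 (26.6) and Abca7 (20.8) were lowest, and each overlapped its neighbour. The order at the bottom differed by genotype. In APP/PS1, Sorl1 was the lowest of all at 12.4, 12.6 and 12.6 TPM, below Abca7 at 13.1, 14.8 and 14.6. In WT, Sorl1 stood at 32.2, 30.9 and 31.4 TPM, above Abca7 at 23.4, 24.4 and 23.8, and in Cx43 cKO it reached 35.3, 36.2 and 35.7 TPM, above Tmem106b at 31.2, 29.2 and 29.1.

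**Figure D3:**
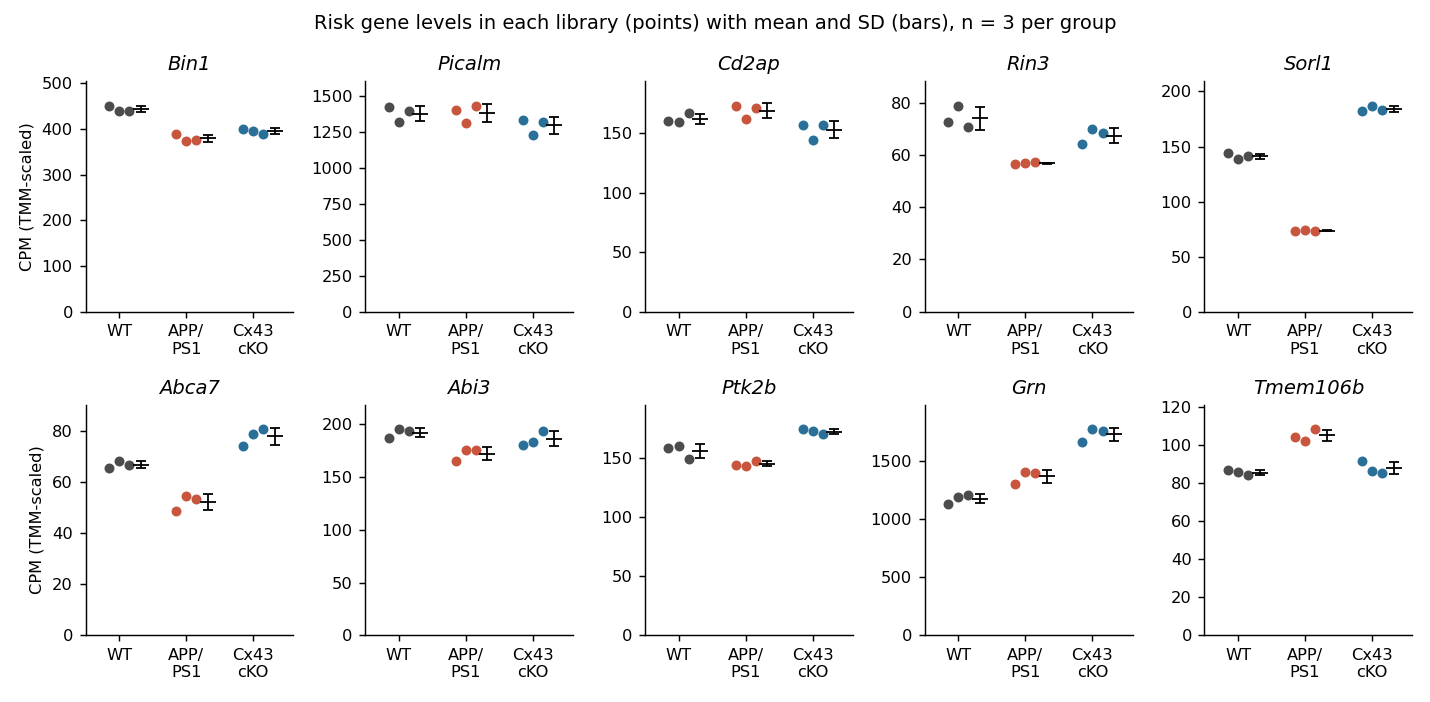
CPM (TMM-scaled, y axes start at 0 and differ between panels) of each risk gene in the 3 libraries of WT, APP/PS1 and Cx43 cKO (points), with the group mean and SD beside them. Sorl1 has no overlap between any 2 groups, while Picalm overlaps throughout.

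Sorl1 encodes a sorting receptor with a Vps10 domain that binds the amyloid precursor protein and carries it with retromer away from the compartments where amyloid is made. The gene lies at chr9:41964709-42124297 in the mouse build GRCm38.p6 (RefSeq), on the minus strand. It measured 144, 139 and 141 CPM in WT mice, 73.2, 74.4 and 73.7 in APP/PS1 mice and 182, 187 and 183 in Cx43 cKO. Every APP/PS1 library was below every WT library, and every Cx43 cKO library was above both other groups. The change was -0.94 on the log2 scale in the amyloid comparison (SE 0.034, edgeR adjusted p = 2.05e-18), and over 20 alternatives it ran from -1.26 to -0.79. Cx43 cKO exceeded APP/PS1 by 1.32 (SE 0.034, edgeR adjusted p = 8.76e-22, alternatives 1.23 to 1.44), the sole change of at least 2-fold among the 10 genes. Against WT it was higher by 0.38 (SE 0.032, edgeR adjusted p = 1.12e-10), which was 0.18 on TPM. The span of its 3 group means, 1.31 on the log2 scale, was wider than that of 94.4% of tested genes. The group order of Sorl1, lowest in APP/PS1 and highest in Cx43 cKO, is also that of the monocyte and neutrophil markers, whose 11 genes were all lower in APP/PS1 than in WT and all higher in Cx43 cKO than in both other groups, each past the threshold. The part of those cells in the Sorl1 values was not tested.

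The 3 genes with group means most like those of Sorl1, by root mean square distance of centred log2 CPM over the 3 groups among 9163 genes of at least 10 CPM, were Ceacam1 (distance 0.0422), Adgre5 (0.0429) and Smc4 (0.0495). Ceacam1, an adhesion receptor, averaged 55 ± 2.54, 30.7 ± 1.19 and 73.6 ± 0.599 CPM (SD, n = 3) in WT, APP/PS1 and Cx43 cKO. Adgre5, the leukocyte adhesion receptor CD97, averaged 90.9 ± 2.96, 44.2 ± 1.29 and 117 ± 2.66 CPM, and Smc4, a condensin subunit, 37.6 ± 4.18, 20.6 ± 2.27 and 47.7 ± 3.62 CPM.

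The promoter of Sorl1 is shown because this gene changed most, that of Grn because it is the most abundant of the 10 and rose in both steps on CPM, though not on TPM in the amyloid comparison, and that of Picalm because it changed least on CPM, though not on TPM. Each is the 250 bases before the transcript start in RefSeq (GRCm38.p6), 5′ to 3′ on the gene's strand, and capitals mark matches to GAGGAA or TTCCTC, the core letters bound by the myeloid factor PU.1 on either strand, or to CACGTG, the E-box letters read by the TFEB family at lysosomal genes (TCACGTGA in its longer form).
Sorl1, chr9:42124298-42124547, minus strand: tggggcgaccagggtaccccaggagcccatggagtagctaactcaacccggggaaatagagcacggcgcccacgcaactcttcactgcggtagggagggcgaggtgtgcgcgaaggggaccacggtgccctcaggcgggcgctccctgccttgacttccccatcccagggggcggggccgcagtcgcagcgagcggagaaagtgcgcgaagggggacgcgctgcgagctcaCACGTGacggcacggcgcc
Grn, chr11:102430257-102430506, plus strand: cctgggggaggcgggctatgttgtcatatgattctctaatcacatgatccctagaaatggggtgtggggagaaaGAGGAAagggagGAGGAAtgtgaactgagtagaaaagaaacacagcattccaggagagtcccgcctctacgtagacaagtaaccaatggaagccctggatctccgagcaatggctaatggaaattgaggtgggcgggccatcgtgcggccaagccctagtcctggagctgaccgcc
Picalm, chr7:90129963-90130212, plus strand: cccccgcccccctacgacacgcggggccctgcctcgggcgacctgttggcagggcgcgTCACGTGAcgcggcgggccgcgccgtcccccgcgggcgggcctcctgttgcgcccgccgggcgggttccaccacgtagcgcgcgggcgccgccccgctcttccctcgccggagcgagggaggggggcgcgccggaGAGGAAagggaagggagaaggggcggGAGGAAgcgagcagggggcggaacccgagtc
Sorl1 held CACGTG with its first base 19 bases before the start shown (-19), the outermost start of the gene, and its other listed start (chr9:42077214-42077463) held none of the motifs. Grn held GAGGAA at -176 and at -164. Picalm held TCACGTGA at -192, which contains CACGTG, and GAGGAA at -57 and at -31. Promoters were at hand for 7 of the 10 genes, with 9 starts in all, and the Picalm start is not the outermost one of its gene. Among 32851 mouse promoters of this length, 23.3% held the PU.1 core on either strand, 6.02% CACGTG and 0.785% TCACGTGA. Thus the genes with the widest and the narrowest span on CPM both hold the E-box letters, and a match is no evidence of binding.

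Retromer and the Vps10-domain receptors, the partners of SORL1, were mixed. Beside the counts of this and the other pathway lists stand the shares of all tested genes that were called, 26.9% higher and 32.0% lower in the amyloid comparison, 27.3% and 27.7% in the knockout comparison and 24.7% and 23.0% in the combined comparison. On TPM these shares were 11.4% higher and 65.9% lower, 46.6% and 15.3%, and 12.2% and 49.4%, so the counts of a list on TPM lean the way all genes do. Of 18 genes tested, 9 were higher and 3 lower in APP/PS1 than in WT (median log2 change 0.13, all tested genes -0.036). Vps29, a core subunit of retromer, rose from 47.1 ± 1.11 to 91.1 ± 4.4 CPM (SD, n = 3; log2 change 0.95, SE 0.043, edgeR adjusted p = 2.06e-16), and the sorting nexins Snx6 and Snx5 rose by 0.76 and 0.41. In the knockout comparison, 5 were higher and 7 lower (median 0.072, all -0.011), with Vps29 at -0.64, Snx5 at -0.51 and the receptor Sorcs2 at -0.54. Against WT, 6 were higher and 4 lower in Cx43 cKO (median 0.054, all -0.0086), among them Vps29 at 0.31, Gga2, an adaptor for Vps10 receptors at the Golgi, at 0.38 and Sorcs2 at -0.41. On TPM, 2 were higher and 12 lower in the amyloid comparison, 9 higher and 5 lower in the knockout comparison and 3 higher and 11 lower in the combined comparison, while Vps29 in the 3 comparisons, Snx5 in the amyloid and knockout comparisons and Snx6 in the amyloid comparison kept their sign under all 20 alternatives. The group with the most Vps29, APP/PS1, also had the highest summed markers of astrocytes (9 of 10 called higher than in WT), of T and NK cells (4 of 5) and of microglia (6 of 10, with 3 called lower), and their part was not tested.

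Abca7 encodes a lipid transporter of the ABC family that takes part in phagocytosis. The gene lies at chr10:79996453-80015572. Its level was 65.7, 68.4 and 66.8 CPM in WT mice, 48.6, 54.6 and 53.6 in APP/PS1 mice and 74.1, 79.1 and 80.7 in Cx43 cKO. The groups did not overlap, and APP/PS1 was lowest. The log2 change was -0.36 in the amyloid comparison (SE 0.047, edgeR adjusted p = 3.62e-07), from -0.72 on TPM to -0.11 with offsets for GC content and transcript length. It was 0.58 in the knockout comparison (SE 0.047, edgeR adjusted p = 5.40e-11, alternatives 0.44 to 0.74). The difference between Cx43 cKO and WT, 0.22 (SE 0.045, edgeR adjusted p = 2.07e-04), no longer passed on log2(FPKM + 1), at 0.10, nor on log2(TPM + 1), at 0.020. As with Sorl1, the group order is that of the monocyte and neutrophil markers (927 to 951 CPM in APP/PS1, 2641 to 2677 in WT mice, 8443 to 8599 in Cx43 cKO), whose part was not tested. The genes nearest to Abca7 in profile were Vcl (distance 0.00227), which encodes the adhesion protein vinculin and averaged 62.6 ± 2.7, 48.6 ± 1.81 and 72.9 ± 1.61 CPM (SD, n = 3), the ubiquitin ligase gene Rnf26 (0.00803) and the histone deacetylase gene Hdac4 (0.00828).

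The other ABC lipid transporters held more lower than higher genes in each comparison on CPM. Of 10 tested, 5 were lower and 1 higher in APP/PS1 than in WT (median -0.12, all -0.036), where 32.0% of all tested genes were lower, and 5 lower and 1 higher in the knockout comparison (median -0.23, all -0.011), where 27.7% were lower. Against WT, 6 were lower and 0 higher in Cx43 cKO in edgeR's quasi-likelihood test (median -0.30, all -0.0086; 23.0% of all tested genes lower), and 0 were higher at an unadjusted p of 0.05 or in the DESeq2 Wald test. Abca1, which exports cholesterol to apolipoprotein E, fell from 491 ± 12.3 CPM in WT to 419 ± 6.47 in APP/PS1 mice and 322 ± 5.88 in Cx43 cKO mice (SD, n = 3). Its log2 changes were -0.23 in the amyloid comparison, -0.38 in the knockout comparison and -0.61 in the combined comparison (SE 0.029 in each, edgeR adjusted p at most 1.30e-07). Border macrophage markers fell in the same order of groups, at 567 ± 5.48, 426 ± 7.19 and 369 ± 9.45 CPM, and so did erythroid markers, at 833 ± 32.3, 187 ± 10.8 and 74.3 ± 3.38 CPM (SD, n = 3). Between Cx43 cKO and WT, 8 of 8 border macrophage, 6 of 6 erythroid and 9 of 10 vessel markers were called lower. The single steps were less uniform. In the amyloid comparison 5 border macrophage markers were called lower and 2 higher, and 6 erythroid markers lower. In the knockout comparison these were 6 lower and 1 higher, and 4 lower and 2 higher. The part of these cells in the Abca1 values was not tested. Abca8a was lower in Cx43 cKO than in both APP/PS1 (-0.52) and WT (-0.62). The sparse Abcg4, at 2.56, 1.06 and 0.909 CPM, was below WT in APP/PS1 by -1.27 and below it by -1.49 in Cx43 cKO, on the log2 scale. Abca5 exceeded its WT level in APP/PS1 by 0.35, a value that turned to -0.017 on TPM. On TPM the knockout comparison had 2 of the 10 higher and 2 lower. With GC and length offsets the amyloid comparison had 3 of each, the knockout comparison 0 higher and 5 lower and the combined comparison 1 higher and 6 lower.

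Bin1, Picalm, Cd2ap and Rin3 act at the start of endocytosis, and none of them changed by as much as Sorl1. Bin1 encodes amphiphysin 2, whose BAR domain senses and bends membranes. It was at 450.4, 439 and 439.6 CPM in WT mice, 388, 374 and 376 in APP/PS1 mice and 400.3, 396 and 389 in Cx43 cKO. Every WT library was above all others. The log2 change of Bin1 was -0.22 in the amyloid comparison (SE 0.028, edgeR adjusted p = 1.59e-07) and -0.16 in the combined comparison (SE 0.028, edgeR adjusted p = 2.24e-05), and both passed under all 20 alternatives, with values down to -0.60 and -0.36 on TPM. Between Cx43 cKO and APP/PS1 the difference was 0.058 (95% interval 0.0026 to 0.11, edgeR adjusted p = 0.0855). It passed with library totals (0.088), on log2(FPKM + 1) (0.085), on TPM (0.25), without APP/PS1 library 1 (0.076) and in the fit blocked by replicate number (0.058, edgeR adjusted p = 0.00468).

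Picalm encodes a clathrin adaptor that binds membrane lipids and sorts cargo into coated vesicles. The gene lies at chr7:90130192-90209447. It was at 1419, 1316 and 1394 CPM in WT mice, 1398, 1309 and 1431 in APP/PS1 mice and 1335, 1229 and 1319 in Cx43 cKO. The groups overlapped in every comparison. The log2 change was 0.0031 in the amyloid comparison (95% interval -0.071 to 0.078, edgeR adjusted p = 0.951), and it passed as a decrease with library totals (-0.13), on log2(FPKM + 1) (-0.13) and on TPM (-0.39), but as an increase when GC and length offsets were joined to a block on the replicate number (0.013, edgeR adjusted p = 0.0439). Cx43 cKO differed by -0.092 from APP/PS1 (95% interval -0.17 to -0.017, edgeR adjusted p = 0.0518), 0.10 on TPM, and by -0.089 from WT (95% interval -0.16 to -0.014, edgeR adjusted p = 0.0669). Within each replicate number the Cx43 cKO library was below those of WT and APP/PS1, and both differences passed with that number as a block (edgeR adjusted p = 0.00167 and 0.00174), although the numbers are not shown to pair libraries. With offsets and block together they were -0.048 and -0.035 (edgeR adjusted p = 1.35e-07 and 1.75e-05). The first also passed in a fit of the compared groups alone (-0.092) and when WT library 1 or 2, APP/PS1 library 2 or Cx43 cKO library 1 was left out (-0.13 at most), and the second in a fit of the compared groups alone (-0.087), without WT library 2, APP/PS1 library 2 or 3, or Cx43 cKO library 1 (-0.12 at most), with library totals (-0.20), on log2(FPKM + 1) (-0.19) and on TPM (-0.28). The span of the group means on CPM was narrower in 6.33% of tested genes.

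Cd2ap encodes a scaffold that ties receptors and endocytic proteins to actin. The gene lies at chr17:42748887-42876707. Its values were 160.4, 159.6 and 167 CPM in WT mice, 173, 162 and 171 in APP/PS1 mice and 157, 144 and 157 in Cx43 cKO. Cx43 cKO was below APP/PS1 in all libraries, while WT and APP/PS1 overlapped. The log2 change of the knockout comparison was -0.14 (SE 0.037, edgeR adjusted p = 0.00215). It no longer passed with GC and length offsets, at -0.035, nor on log2(FPKM + 1), at -0.11, and was 0.053 on TPM. APP/PS1 differed from WT by 0.055 (95% interval -0.018 to 0.13, edgeR adjusted p = 0.211), which passed in a fit of these groups alone (0.090) and in the fit blocked by replicate number (0.055, edgeR adjusted p = 0.0387) and was -0.34 on TPM, and Cx43 cKO from WT by -0.088 (95% interval -0.16 to -0.014, edgeR adjusted p = 0.0556). The last passed when APP/PS1 library 1 or 2 or Cx43 cKO library 1 or 3 was left out (-0.11 at most), with library totals (-0.20), on log2(FPKM + 1) (-0.19), on TPM (-0.28) and in the blocked fit (-0.088, edgeR adjusted p = 0.00153). Astrocyte sums (856, 1058 and 839 CPM in WT, APP/PS1 and Cx43 cKO) and vessel sums (1067, 1085 and 815) stood in the group order of Cd2ap. In the knockout comparison 9 of 10 markers of each were called lower and 0 higher. In the amyloid comparison 9 astrocyte markers were called higher and 1 lower, and 2 vessel markers higher and 5 lower. The part of these cells was not tested.

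The wider clathrin and membrane-bending group held 28 tested genes. In the amyloid comparison, 6 were higher and 13 lower (median -0.041, all -0.036). The clathrin light chain Clta rose by 0.66 (SE 0.033, edgeR adjusted p = 1.58e-15), from 217 ± 4.86 to 342 ± 11.9 CPM (SD, n = 3), the actin-capping subunit Capza2 rose by 0.66 and the AP-2 adaptor subunit Ap2s1 by 0.59. Between Cx43 cKO and APP/PS1, 16 were higher and 6 lower (median 0.14, all -0.011). Hip1r, which links clathrin coats to actin, rose by 0.89 (SE 0.062, edgeR adjusted p = 2.70e-12) from 16.3 ± 0.632 to 30.2 ± 0.49 CPM, Bin3, a relative of Bin1, rose by 0.48, and Capza2 fell by 0.62. In the combined comparison, 12 were higher and 4 lower (median 0.047, all -0.0086), with Bin3 at 0.63, Clta at 0.59 and Hip1r at 0.45. Hip1r stood in the group order of the monocyte and neutrophil markers (941 CPM in APP/PS1, 2654 in WT and 8510.3 in Cx43 cKO), of which 11 of 11 were called higher in both comparisons with Cx43 cKO, and their part was not tested. On TPM the split of this group was 3 higher and 23 lower in the amyloid comparison, 21 and 2 in the knockout comparison and 5 and 16 in the combined comparison. With GC and length offsets it was 6 higher and 7 lower in the amyloid comparison, 15 and 5 in the knockout comparison and 15 and 4 in the combined comparison, where 26.5% and 27.8%, 26.9% and 25.7%, and 27.3% and 21.4% of all tested genes were called.

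Rin3 encodes an exchange factor that loads Rab5 with GTP at early endosomes and binds BIN1 and CD2AP. The gene lies at chr12:102282840-102390854. It was at 72.7, 78.8 and 70.5 CPM in WT mice, 56.6, 56.8 and 57.1 in APP/PS1 mice and 64.3, 69.8 and 68.2 in Cx43 cKO. The 3 groups did not overlap, with Cx43 cKO between the others. APP/PS1 was lower than WT by a log2 change of -0.38 (SE 0.046, edgeR adjusted p = 7.09e-08), between -0.78 on TPM and -0.17 with GC and length offsets. Cx43 cKO was 0.25 above APP/PS1 (SE 0.047, edgeR adjusted p = 6.90e-05, alternatives 0.13 to 0.45). The difference of Cx43 cKO from WT, -0.13 (SE 0.045, edgeR adjusted p = 0.0152), did not pass in the DESeq2 Wald test (-0.11), with GC and length offsets (-0.046), without WT library 2 (-0.087) or without Cx43 cKO library 1 (-0.10). For Bin1 and Rin3, both highest in WT, genes induced by dissociation were also highest there, at 21764 to 22949 CPM against 17606 to 18568 in APP/PS1 mice and 18053 to 18972 in Cx43 cKO, with 10 of 10 lower in APP/PS1 than in WT. B cell markers stood in the full order of both genes, at 31.6 ± 1.2 CPM in WT mice, 19.6 ± 0.517 in Cx43 cKO and 11.1 ± 0.866 in APP/PS1 (SD, n = 3), with 4 of 5 called lower than in WT in each of the other groups. Border macrophage and erythroid sums were highest in WT as well, at 567 and 833 CPM, and the part of any of these was not tested.

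Among 15 genes for Rab5, its relatives and their exchange factors, 2 were higher and 4 lower in APP/PS1 than in WT (median -0.075, all -0.036). Rab5a was higher by 0.25 and its effector Eea1 by 0.17, and both turned negative on TPM (-0.14 and -0.20). Ankrd27, an exchange factor of this family, changed by -0.20. Between Cx43 cKO and APP/PS1, 7 were higher and 0 lower in edgeR's quasi-likelihood test (median 0.094, all -0.011), and 0 were lower at an unadjusted p of 0.05 or in the DESeq2 Wald test. The group was led by Rinl, a relative of Rin3, which rose by 0.46 (SE 0.056, edgeR adjusted p = 1.13e-07) from 25 ± 0.974 to 34.3 ± 1.69 CPM (SD, n = 3), and by Rab22a at 0.32 and Rab31 at 0.28. In the combined comparison, 7 were higher and 1 lower (median 0.053, all -0.0086), with Rinl at 0.38, Rab31 at 0.29 and Rab5a at 0.28. Monocyte and neutrophil markers were called higher in the same comparisons (11 of 11 in each; sums of 941 CPM in APP/PS1, 2654 in WT and 8510.3 in Cx43 cKO), and their part in these counts was not tested. On TPM the split was 0 higher and 15 lower, 13 higher and 0 lower, and 2 higher and 6 lower in the amyloid, knockout and combined comparisons (limma on log2 TPM), beside 65.9% of all tested genes lower, 46.6% higher and 49.4% lower in turn.

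**Figure D4:**
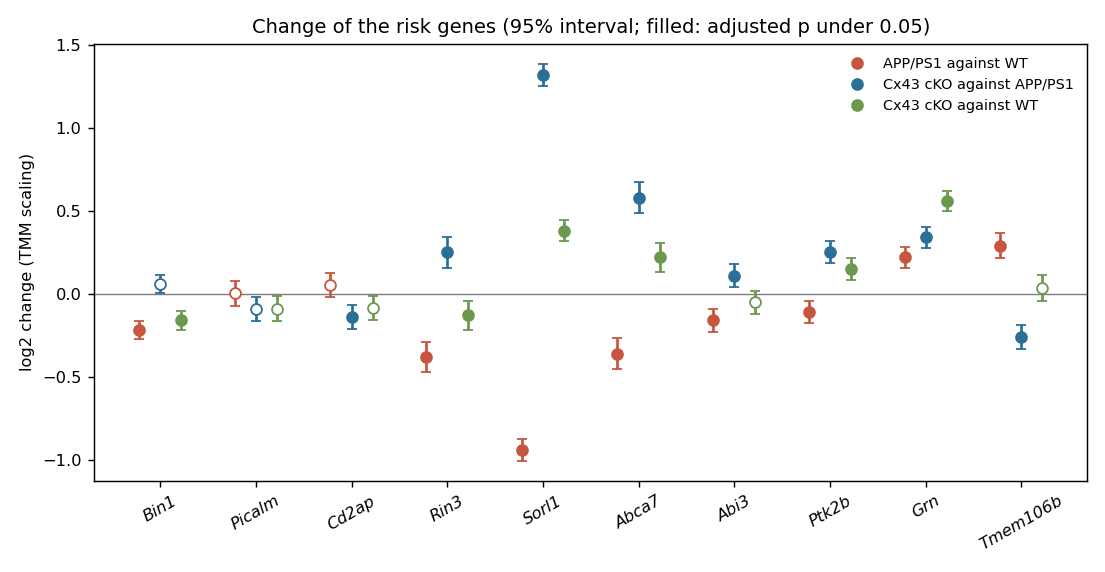
Log2 change (TMM-scaled CPM, y axis) of each risk gene in the 3 comparisons with 95% intervals; filled points passed an adjusted p of 0.05 and open points did not. Sorl1 lies at -0.94 and 1.32 in APP/PS1 against WT and Cx43 cKO against APP/PS1, which share the APP/PS1 libraries; the small values of Picalm, Cd2ap, Abi3, Ptk2b, Grn and Tmem106b in APP/PS1 against WT change sign under another scaling.

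Abi3 and Ptk2b connect receptors to the cytoskeleton. Abi3 encodes a subunit of a WAVE complex that turns Rac signals into actin branching, and lies at chr11:95830072-95842476. Its values were 187, 195 and 194 CPM in WT mice, 165, 176 and 176 in APP/PS1 mice and 180.1, 183 and 194 in Cx43 cKO. APP/PS1 was below both other groups in all libraries, and Cx43 cKO overlapped WT. The log2 change of the amyloid comparison was -0.16 (SE 0.035, edgeR adjusted p = 4.13e-04), but 0.056 with GC and length offsets, and with the block joined to them it passed as an increase (0.057, edgeR adjusted p = 0.031). That of the knockout comparison was 0.11 (SE 0.035, edgeR adjusted p = 0.0127). The latter was -0.012 with those offsets and did not pass without APP/PS1 library 1 (0.078) or without Cx43 cKO library 3 (0.075). The combined comparison gave -0.050 (95% interval -0.12 to 0.018, edgeR adjusted p = 0.249), which was 0.045 with the offsets and passed with library totals (-0.16), on log2(FPKM + 1) (-0.14) and on TPM (-0.23). B cell sums (31.6 CPM in WT, 19.6 in Cx43 cKO and 11.1 in APP/PS1) stood in the group order of Abi3. Of these 5 markers, 4 were called lower in the amyloid comparison and 4 higher in the knockout comparison. Monocyte and neutrophil markers were 11 of 11 lower, then 11 of 11 higher, and 11 of 11 higher in the combined comparison. The part of these cells was not tested.

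Ptk2b encodes PYK2, a calcium-sensitive kinase of the focal adhesion family, and lies at chr14:66153257-66281100. It was at 158, 160.3 and 149 CPM in WT mice, 144, 143 and 147 in APP/PS1 mice and 174, 173 and 170.0 in Cx43 cKO. Cx43 cKO was above every other library, and APP/PS1 lay just below the lowest WT library. Cx43 cKO exceeded APP/PS1 by 0.25 (SE 0.034, edgeR adjusted p = 3.86e-07, alternatives 0.14 to 0.44). It exceeded WT by 0.15 (SE 0.033, edgeR adjusted p = 7.09e-04), which did not pass with library totals (0.038) or on log2(FPKM + 1) (0.037) and was -0.052 on TPM. The log2 change of the amyloid comparison, -0.11 (SE 0.034, edgeR adjusted p = 0.0072), was 0.046 with GC and length offsets and did not pass in the DESeq2 Wald test (-0.089), in a fit of these groups alone (-0.074) or without WT library 2 (-0.089). Monocyte and neutrophil markers, lowest in APP/PS1 and highest in Cx43 cKO, stood in the same order as Ptk2b, and their part was not tested.

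Of 16 genes of the WAVE complex, Rac and the Arp2/3 complex, 7 were higher and 5 lower in APP/PS1 than in WT (median 0.064, all -0.036). Cyfip2, a WAVE subunit, went from 44.1 ± 1.2 CPM in WT to 21.2 ± 0.868 in APP/PS1 mice and 76.9 ± 0.533 in Cx43 cKO mice (SD, n = 3). Its log2 changes were -1.05 in the amyloid comparison (SE 0.052, edgeR adjusted p = 1.07e-15) and 1.86 in the knockout comparison (SE 0.049, edgeR adjusted p = 1.16e-21). Rac2, the Rac of blood cells, followed the same order at 205 ± 8.08, 138 ± 2.9 and 285 ± 9.62 CPM, with log2 changes of -0.56 in the amyloid comparison and 1.04 in the knockout comparison. The small WAVE subunit Brk1 went the other way, by 0.96 and -0.56. In the knockout comparison, 8 of the 16 were higher and 5 lower (median 0.077, all -0.011), and against WT 11 were higher and 2 lower (median 0.20, all -0.0086), with Cyfip2 at 0.80, the Arp2/3 subunit Arpc3 at 0.56 and Rac2 at 0.48. On TPM, 2 were higher and 12 lower in the amyloid comparison, 11 higher and 2 lower in the knockout comparison and 7 higher and 6 lower in the combined comparison.

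The focal adhesion kinases and their partners, around Ptk2b, held 16 tested genes, of which 11 were lower and 2 higher in APP/PS1 than in WT (median -0.19, all -0.036), beside 32.0% lower and 26.9% higher of all tested genes. In the knockout comparison, 11 were higher and 1 lower (median 0.20, all -0.011), beside 27.3% and 27.7% of all tested genes. Fgr, a Src-family kinase of myeloid cells, was at 29.1 ± 0.574 CPM in WT mice, 16.1 ± 0.633 in APP/PS1 mice and 68.8 ± 3.27 in Cx43 cKO mice (SD, n = 3). Its log2 changes were -0.85 in the amyloid comparison, 2.09 in the knockout comparison and 1.24 in the combined comparison (edgeR adjusted p at most 3.64e-12). The adhesion scaffold Nedd9 changed by -0.81 in the amyloid comparison and by 1.34 in the knockout comparison. In the combined comparison, 7 were higher and 6 lower (median 0.0017, all -0.0086), with the kinase Fyn at 0.76 and Tgfb1i1, a relative of paxillin, at -0.74. In the amyloid and knockout comparisons the medians kept their sign with GC and length offsets (-0.11 and 0.14, all tested genes -0.013 and -0.0091). On TPM they were -0.58 and 0.39, but there the median of all tested genes itself was -0.35 and 0.14. Relative to it the list stood at -0.23 and 0.24. The combined comparison had 4 higher and 10 lower on TPM. Neutrophils and monocytes also express Rac2 and Fgr, and their summed markers (941 ± 13 CPM in APP/PS1, 2654 ± 19.6 in WT and 8510.3 ± 79.9 in Cx43 cKO mice; SD, n = 3) stood in the same order. The part of those cells was not tested.

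**Figure D5:**
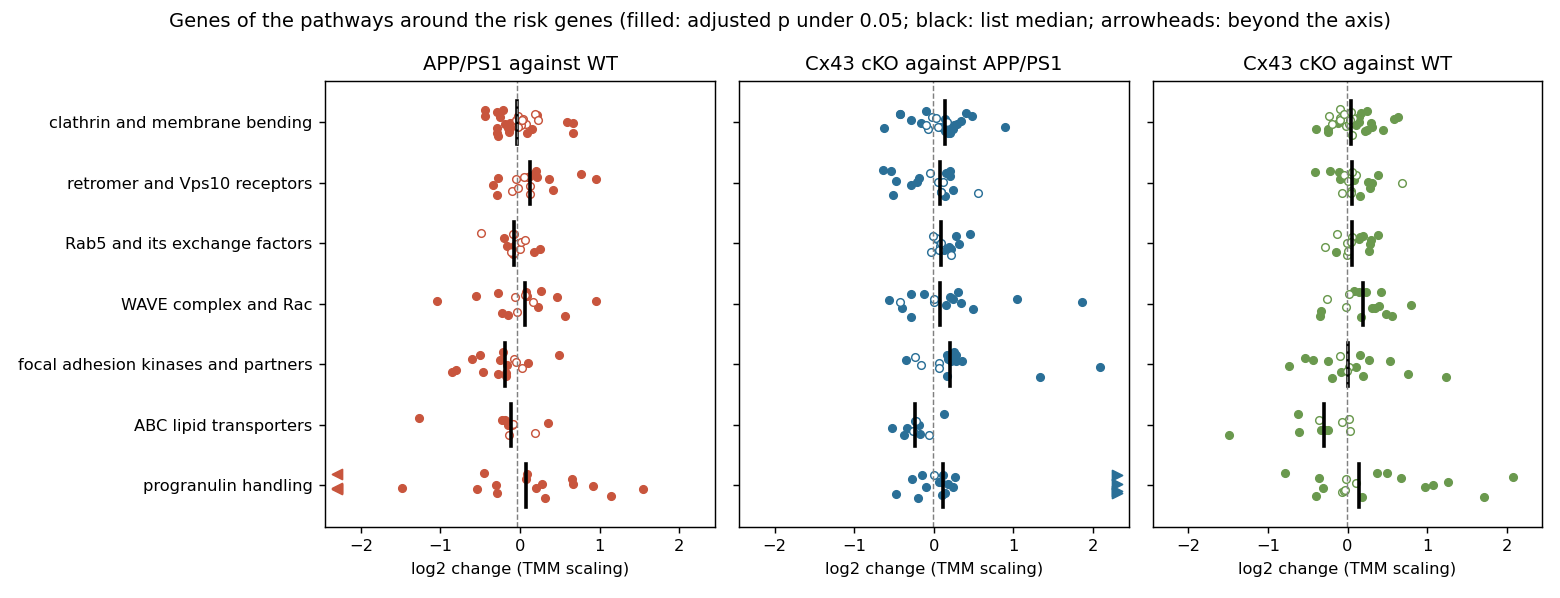
Log2 change (TMM-scaled CPM, x axis) of every gene in the 7 pathway groups around the risk genes; filled points passed an adjusted p of 0.05, black bars mark group medians, the dashed line the median of all tested genes and arrowheads values beyond the axis. Of 16 focal adhesion partners, 11 were called lower in APP/PS1 against WT (32.0% of all tested genes) and 11 higher in Cx43 cKO against APP/PS1 (27.3%). These 2 comparisons share the APP/PS1 libraries, and in Cx43 cKO against WT 7 were higher and 6 lower.

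Grn and Tmem106b encode lysosomal proteins whose variants are tied to frontotemporal dementia. Grn encodes progranulin, which is secreted, taken up through sortilin or with prosaposin, and cut into granulins in lysosomes. The gene lies at chr11:102430507-102436809. It was at 1135, 1192 and 1207 CPM in WT mice, 1308, 1405 and 1401 in APP/PS1 mice and 1669, 1774 and 1757 in Cx43 cKO. The 3 groups did not overlap, and Cx43 cKO was highest. Cx43 cKO was above APP/PS1 by 0.34 (SE 0.032, edgeR adjusted p = 1.46e-09, alternatives 0.31 to 0.53) and above WT by 0.56 (SE 0.032, edgeR adjusted p = 1.33e-13), or 0.36 on TPM. In both of these comparisons 11 of 11 monocyte and neutrophil markers were called higher (8510.3 CPM in sum in Cx43 cKO, against 941 in APP/PS1 and 2654 in WT), and their part was not tested. In the amyloid comparison, where Grn was higher on CPM, 11 of 11 were called lower. The log2 change of the amyloid comparison was 0.22 (SE 0.032, edgeR adjusted p = 1.80e-06). It did not pass on log2(FPKM + 1), at 0.080, and was -0.17 on TPM, where WT stood at 1273, 1333 and 1351 and APP/PS1 at 1116, 1195 and 1194.

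Tmem106b encodes a membrane protein of late endosomes and lysosomes that governs their size and transport, and lies at chr6:13069759-13089269. Its values were 86.8, 85.5 and 83.9 CPM in WT mice, 104, 102 and 108 in APP/PS1 mice and 91.2, 86 and 85.4 in Cx43 cKO. APP/PS1 was above all other libraries, and Cx43 cKO overlapped WT. The log2 change was 0.29 in the amyloid comparison (SE 0.038, edgeR adjusted p = 2.46e-07), but -0.097 on TPM. In the knockout comparison it was -0.26 (SE 0.038, edgeR adjusted p = 2.34e-06), and -0.060 on TPM, where it did not pass. The combined comparison gave 0.035 (95% interval -0.040 to 0.11, edgeR adjusted p = 0.478), which was -0.16 on TPM and 0.093 with GC and length offsets, passing in both. Several marker sums were also highest in APP/PS1. Astrocyte markers were at 856 ± 3.72 CPM in WT mice, 1058 ± 16 in APP/PS1 mice and 839 ± 4.02 in Cx43 cKO (SD, n = 3), with 9 of 10 called higher in the amyloid comparison and 9 of 10 called lower in the knockout comparison. T and NK cell markers were at 23.2 ± 0.713, 39.6 ± 1.11 and 26.9 ± 1.48 CPM in the same groups, with 4 of 5 called higher and then 4 of 5 called lower. The microglial sum was 19932 ± 179, 24114 ± 196 and 20959 ± 155 CPM, but its members were divided, with 6 of 10 called higher and 3 called lower in the amyloid comparison and 2 higher and 6 lower in the knockout comparison. Neuronal and oligodendrocyte sums were highest in APP/PS1 as well, at 148 ± 9.91 and 2401 ± 18.6 CPM. Of 10 neuronal markers, 5 were called higher and 1 lower in the amyloid comparison, and 0 and 5 in the knockout comparison. Oligodendrocyte markers were divided, with 5 called higher and 3 lower and then 0 and 6, and their sum in WT was 2331 ± 31.8 CPM. The part of any of these cells in the Tmem106b values was not tested.

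All 18 genes on the list for the handling of progranulin passed the test in the amyloid comparison, with 10 higher and 8 lower (median 0.079, all -0.036), where 59.0% of all tested genes passed, 26.9% higher and 32.0% lower. The list was chosen with earlier results of these data known, so this full count is no independent evidence about its genes. On TPM, 5 of the 18 were higher and 12 lower. The members that moved most are proteases of neutrophils, which cut progranulin outside the cell. Elane, neutrophil elastase, was at 91.9 ± 2.66 CPM in WT and 1.24 ± 0.183 in APP/PS1 (SD, n = 3; log2 change -6.20, SE 0.087, edgeR adjusted p = 1.46e-27), and at 53.2 ± 2.55 in Cx43 cKO. Prtn3, proteinase 3, changed by -5.55 in the amyloid comparison and by 5.15 in the knockout comparison. The secreted metalloprotease Mmp9 changed by -2.54 and 4.25 in the same comparisons. Of the 18, 12 were higher and 5 lower in the knockout comparison (median 0.11, all -0.011), and 14 and 1 on TPM. Against WT, 9 were higher and 4 lower (median 0.15, all -0.0086), 8 and 8 on TPM, led by Slpi, which shields progranulin from elastase, at 2.08 and Mmp9 at 1.71. The lysosomal protease gene Ctsd rose from 5725 ± 127 CPM in WT to 13711 ± 347 in Cx43 cKO (log2 change 1.26, SE 0.027, edgeR adjusted p = 2.23e-23). Most of this lay in the amyloid comparison, where Ctsd changed by 1.14, against 0.12 in the knockout comparison. Elane, Prtn3, Mmp9 and Slpi are made by neutrophils, whose markers, with those of monocytes, differed between the same groups (11 of 11 lower in APP/PS1 than in WT mice, 11 of 11 higher in the knockout comparison), and the part of these cells was not tested. Between Cx43 cKO and WT, 11 of 11 of those markers were called higher, as were Slpi and Mmp9, while Elane and Prtn3 were lower, by -0.79 and -0.40.

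With 3 libraries against 3, an exact permutation test of a single gene cannot give a two-sided p below 0.1, so all calls rest on the spread shared across genes in the edgeR fit. The coefficient of variation of the 10 genes within a group ran from 0.464% to 6.12%.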

How the data were processed

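Poly-A RNA of 9 libraries was sequenced on the DNBSEQ platform as single-end reads of 50 nt, as the labels' protocols state. Per the submitters' processing notes the build was GRCm38.p6, and HISAT, Bowtie2 and DESeq2 were used, with no versions given. Per the file headers, the deposited table gives for each library an estimated count (with decimals, not scaled between libraries), and also an FPKM, a TPM and a further normalised count. The deposited normalised count, a signal scaled by a factor per library, and the group means given by the authors were left out. All per-sample columns were matched to a library by name.

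Estimated counts were rounded to whole numbers and tested with edgeR 4.0.16 (R 4.3.3): TMM scaling, filterByExpr by group, robust quasi-likelihood fit of all 9 libraries with a mean per group, and Benjamini-Hochberg adjustment over 14696 genes of 18571, at a threshold of 0.05. CPM uses TMM-scaled totals. Intervals are at the 95% level (1.96 SE). Totals were 18907681 to 19565354 per library. Within groups the chi-square per gene between library pairs was 1.8 to 3.54, so no pair agreed within sampling noise, against 71.2 to 133 between groups.

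The alternatives were DESeq2 1.42.0 size factors and Wald test, library totals, no filter on low counts, the compared groups alone, the replicate number as a block, offsets by 10 bins each of GC content and transcript length (GENCODE M21, 17905 genes), limma 3.58.1 on log2(FPKM + 1), log2(FPKM + 0.1) and log2(TPM + 1), a stricter adjusted p of 0.01, a minimum change of 2-fold, and leaving out each library. The 10 genes, the pathway lists and the marker lists were chosen with earlier results of these data known. Named list genes are the 3 with the largest absolute log2 change among those past the threshold in a comparison, with a mean of at least 1 CPM; 1 such gene is not reported here. On simulated data for APP/PS1 against WT, 100 genes were changed at each fold and the rest were left alike. With a coefficient of variation of 3%, 72% of 1.25-fold and 97% of 2-fold changes were recovered among 14600 tested genes, and 4.52% of calls were false. With one of 10%, 13% and 98% were recovered among 14597 genes, and 0.893% of calls were false. In the real comparison 59.0% of tested genes were called, so these shares do not describe recovery of the 10 genes.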

Additional observations from a re-analysis of the deposited data

How the results depend on the processing

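Each of the 10 genes was recomputed in 3 comparisons under 20 alternatives. Of these 600 values, 507 kept their direction and side of the threshold, 23 kept the direction but no longer passed, 42 passed where the reported fit did not, and 28 changed sign. None of the sign changes was in Sorl1, Abca7, Bin1 or Rin3. In the amyloid comparison, Picalm was -0.13 with library totals, log2(FPKM + 1) and log2(FPKM + 0.1) and -0.39 on log2(TPM + 1), and leaving out a library gave -0.028 to 0.040. Cd2ap was -0.083 with library totals, -0.085 and -0.088 on FPKM with pseudocounts of 1 and 0.1 and -0.34 on TPM. With GC and length offsets Abi3 was 0.056 (0.057 with the replicate block added, which passed, with an edgeR adjusted p of 0.031) and Ptk2b 0.046 with and without it. On TPM Grn was -0.17 and Tmem106b -0.097. In the knockout comparison, Picalm was 0.10 and Cd2ap 0.053 on TPM, and Abi3 was -0.012 with GC and length offsets, with and without the block. In the combined comparison, Abi3 was 0.045 with those offsets, with and without the block, and Ptk2b was -0.052 on TPM. There Tmem106b was -0.072 with library totals, -0.067 and -0.071 on FPKM with pseudocounts of 1 and 0.1 and -0.16 on TPM. The cause of these turns was not tested. Asking for at least a 2-fold change left 0, 1 (Sorl1) and 0 genes called in the amyloid comparison, the knockout comparison and the combined comparison. Leaving out a library left 7 to 8, 7 to 9 and 6 to 8 called.

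With the replicate number as a block (replicate block), 9, 10 and 8 of the 10 genes passed in the amyloid, knockout and combined comparisons, with Cd2ap added in the first, Bin1 and Picalm in the second and Cd2ap and Picalm in the third. The numbers are not shown to pair libraries. Over 10813 genes, the deviations of same-numbered libraries from their group means correlated at 0.055 to 0.289 (mean 0.192), and 8 of 9 pairs exceeded 0.1. The 18 pairs with other numbers averaged -0.095. That average is no separate evidence, because with centred groups positive same-number pairs force a negative average on the others. Every library correlated best with its own number in each other group, which the same centring favours. The same-number correlations are thus a hint from the data and not from the design. The block lowered the biological coefficient of variation from 3.14% to 0.988%. All 10 genes were at 48.6 CPM or more in every library; whether depth limits the calls of small changes was not tested.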

Other observations

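Other genes at Alzheimer loci gave mixed values. Of 38 tested, 13 were higher and 12 lower in APP/PS1 than in WT (median log2 change 0.041, all tested genes -0.036), 9 higher and 11 lower in the knockout comparison (median -0.032, all -0.011) and 7 higher and 10 lower in Cx43 cKO than in WT (median -0.011, all -0.0086). Of all tested genes, 26.9% were higher and 32.0% lower, 27.3% and 27.7%, and 24.7% and 23.0% in these comparisons in turn. Cnn2, an actin-binding calponin encoded beside Abca7, was at 46.7 ± 0.771 CPM in WT mice, 19.8 ± 1.68 in APP/PS1 and 73.5 ± 1.66 in Cx43 cKO mice (SD, n = 3). Its log2 changes were -1.24 in the amyloid comparison and 1.89 in the knockout comparison (edgeR adjusted p = 2.05e-16 and 6.25e-21), in the same order of groups as Abca7 and as the monocyte and neutrophil markers, whose part was not tested. Genes of the Ms4a cluster encode membrane proteins of myeloid cells. Ms4a7, also a marker of border macrophages, changed by 1.22 in the amyloid comparison and by -1.46 in the knockout comparison, and Ms4a6d by -1.27 in the knockout comparison. On TPM the split of the 38 genes was 6 higher and 24 lower, 19 and 8, and 2 and 23 in the 3 comparisons, beside 65.9% of all tested genes lower, 46.6% higher and 49.4% lower. Border macrophage markers, which include Ms4a7, summed to 562 to 573 CPM in WT mice, 419 to 434 in APP/PS1 and 359 to 377 in Cx43 cKO. Scimp, an adaptor of immune cells, rose by 1.20 in APP/PS1, and Fermt2, an integrin activator, fell by 0.44 in the combined comparison.

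Of 13 other frontotemporal dementia genes tested, 5 were higher and 4 lower in APP/PS1 than in WT (median -0.038, all -0.036), 7 higher and 5 lower in the knockout comparison (median 0.082, all -0.011) and 5 of each in the combined comparison (median -0.045, all -0.0086), beside the same shares of all tested genes. On TPM they were 0 and 11, 8 and 2, and 2 and 7 (limma), where 11.4% of all tested genes were higher and 65.9% lower, 46.6% and 15.3%, and 12.2% and 49.4%. Optn, an autophagy receptor, rose by 0.36 in the knockout comparison and by 0.60 against WT, from 14.4 ± 1.03 CPM in WT to 21.8 ± 0.59 in Cx43 cKO mice (SD, n = 3; edgeR adjusted p = 2.56e-08 against WT). C9orf72 fell by 0.27 in the amyloid comparison. Mapt, which encodes tau, was at 41.6 ± 0.911 CPM in WT mice, 40 ± 1.71 in APP/PS1 mice and 29.6 ± 1.64 in Cx43 cKO (SD, n = 3), with log2 changes of -0.44 in the knockout comparison and -0.49 in the combined comparison (edgeR adjusted p = 1.08e-07 and 1.32e-08). Neuronal markers summed to 122 to 135, 139.6 to 159 and 128 to 135 CPM in these groups. Of 10, 9 were lower in the knockout comparison (5 called lower, 0 called higher) and 7 in the combined comparison (4 called lower, 2 called higher), and their part was not tested. The change of Chmp2b in the amyloid comparison, 0.26, turned negative on TPM (-0.13) and with GC and length offsets.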
